A study of Mus musculus with 4 samples.

Results

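Interferon-stimulated effector genes are the genes through which a cell carries out its response to interferon. A list of 39 such mouse genes was followed in subcutaneous LLC tumors, and 37 of them were matched by symbol in all 4 single-cell tables, out of 18596 gene symbols that the tables share. Mx1 and Mx2 were not analysed here. LLC is a mouse Lewis lung carcinoma cell line, and all tumors grew in C57/BL6N mice of 6-8 weeks, the only host strain used. The control group (NT) was mock treated and is 1 library made from 3 pooled tumors. The radiotherapy group (RT) is 3 libraries of 1 tumor each (RT1, RT2 and RT3), given 24 Gy in 3 fractions of 8 Gy, and all tissue was taken 72 h after radiation. The comparison asks how these genes differ between irradiated and control tumors, cell class by cell class, and how far RT1, RT2 and RT3 differ among themselves.

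Type I interferon signals through a receptor that activates transcription factors, STAT2 and IRF9 among them, and these act at the interferon-stimulated response element (ISRE). Interferon gamma acts mainly through the gamma-activated sequence (GAS) and through IRF1. The products of the genes followed here block viral RNA and its translation, tag proteins with ISG15, or coat the vacuoles of intracellular microbes as guanylate-binding proteins and immunity-related GTPases. In tumors the same program is known as a marker of interferon exposure of cancer cells, macrophages and other cells.

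Promoters of 29 of the 37 genes were found in the RefSeq table of the mouse build GRCm38.p6, and none was found for Usp18, Rtp4, Ifi27l2a, Ifi204, Dhx58, Parp14, Gbp4 and Iigp1. The ISRE core (GAAA, 2 bases of any kind, then GAAA) was searched on both strands in the 250 bases before the start of each gene. It was present in 18 of the 29 genes (62.1%) and in 3.46% of all 27025 genes of the table. The GAS core TTCNNNGAA, which is its own reverse complement, was present in 8 of the 29 genes (27.6%) and in 8.13% of all genes. Among the 8 GTPase genes with a promoter, 7 held the first motif and 4 held both, whereas none of the 15 IFIT, ISG15 and antiviral genes with a promoter held both. The windows below show, for 8 of the genes described in the text that follows, 60 bases around the match nearest to the start, 5′ to 3′ on the strand of the gene, with matches to 1 of the motifs in capitals.
Ifit1: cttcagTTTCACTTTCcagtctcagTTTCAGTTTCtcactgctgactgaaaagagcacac
Ifit3: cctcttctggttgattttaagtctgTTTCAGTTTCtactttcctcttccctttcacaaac
Isg15: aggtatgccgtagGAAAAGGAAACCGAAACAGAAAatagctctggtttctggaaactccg
Rsad2: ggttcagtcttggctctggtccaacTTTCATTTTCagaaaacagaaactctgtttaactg
Slfn5: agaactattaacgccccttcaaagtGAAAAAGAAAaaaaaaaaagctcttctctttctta
Gbp2: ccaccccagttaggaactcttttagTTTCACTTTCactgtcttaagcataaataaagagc
Igtp: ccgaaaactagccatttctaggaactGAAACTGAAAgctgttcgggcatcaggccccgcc
Irf1: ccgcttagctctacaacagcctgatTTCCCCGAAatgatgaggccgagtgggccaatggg

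The window of Ifit1 is chr19:34640779-34640838 on the plus strand, and that of Ifit3 is chr19:34583382-34583441 on the plus strand. The window of Isg15 is chr4:156200850-156200909 on the minus strand and holds 3 overlapping matches. The window of Rsad2 is chr12:26456538-26456597 on the minus strand, and that of Slfn5 is chr11:82951922-82951981 on the plus strand. The window of Gbp2 is chr3:142620579-142620638 on the plus strand, and that of Igtp is chr11:58199496-58199555 on the plus strand. The window of Irf1 is chr11:53769899-53769958 on the plus strand, and its capitals mark the GAS core, while the capitals of the other windows mark the ISRE core or its reverse complement. The window of Igtp also holds a GAS core, left in lower case, which begins 45 bases before the start. A match is a description of letters and not evidence of binding.

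After filtering, 55058 of 55805 deposited barcodes were kept, with 69261553 UMIs in NT, 77695945 in RT1, 108694375 in RT2 and 85045561 in RT3. The table of RT2 lists 18605 genes against 32285 in the others, and none of its barcodes exceeded 11.95% mitochondrial UMIs, whereas barcodes of the other tables reached over 90%. RT2 was also the deepest library, with a median of 7513 UMIs per tumor cell against 6718 in NT, 5297 in RT1 and 5565 in RT3. Between 175 and 274 cell barcodes were shared by each pair of libraries. Clusters were named from fixed marker genes, and no gene of the interferon lists took part in building them. Tumor cells numbered 8128 in NT, 9334 in RT1, 8729 in RT2 and 10640 in RT3, and macrophages numbered 732, 2598, 2552 and 1534 in the same order, with a median of 2943, 2646.5, 4357.5 and 2354 UMIs per cell. The marker check held for tumor cells, in which the summed level of 8 tumor markers led by Rhox5 was between 2601 and 2681 CPM in every library, and for macrophages, in which 10 markers led by C1qb summed to between 9818 and 17478 CPM. A cluster of 889 cells with both tumor and macrophage markers was left unassigned, and it held 0.692% of the cells of NT, 1.98% of RT1, 1.99% of RT2 and 1.49% of RT3.

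Within each library the UMIs of all cells of a class were added up and scaled to CPM, so that the genes of a class had the same total in every library. A gene was tested in a class when its mean level corresponded to at least 10 UMIs in the smallest library. A gene that passes only through the group where it is high is bound to differ, and such genes are named where they were called. A gene was called higher or lower in RT when each of the 3 RT libraries differed from NT by a log2 ratio of at least 1 in the same direction. NT is a single library, so no p-value can be given, and the SD over the 3 RT libraries does not include any spread among control tumors. Levels were compared between libraries and classes for the same gene or summed list. Genes were set beside each other only to show which of them carry a sum.

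In tumor cells, 6 of the 37 genes were called higher in RT and none was called lower. The 6 were Ifit1, Ifit3, Ifit3b, Ifit1bl1, Usp18 and Ifi44. Over all 13183 genes tested in tumor cells, 3.75% were called higher and 0.205% lower. A further 14 of the 37 lay above NT in every RT library without reaching the rule, so that 20 were above and 1, Irf1, was below, where 31.6% and 30.5% of all genes tested were above and below. The median log2 ratio of the 37 genes was 0.27, and that of all genes tested was -0.01. Without RT1 the median of the 37 genes was 0.55 and the number called higher was 9, where 4.52% of all genes tested were.

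The IFIT genes encode proteins that bind viral RNA and block its translation. Ifit1 was at 14.8 CPM in NT, 46.0 in RT1, 78.8 in RT2 and 51.4 in RT3. All 3 irradiated tumors lay above the control, with a mean log2 ratio of 1.95 ± 0.41 (SD, n = 3). Ifit3 was at 7.29 CPM in NT, 19.7 in RT1, 28.0 in RT2 and 23.5 in RT3, a mean log2 ratio of 1.69 ± 0.25. Ifit3b, a near copy of Ifit3 with which it can share reads, was at 2.11 CPM in NT and between 4.94 and 6.97 in RT, and its call was lost with CPM + 1 and without integration of the libraries. Ifit1bl1 rested on 9 UMIs in NT and passed the filter of 0.163 CPM through its RT values alone, so nothing is read from its call, which was also lost when the cells with the highest doublet scores were removed. Ifit2 was at 4.54 CPM in NT and between 6.98 and 9.83 in RT, which placed every RT library above NT but not by the required size in RT1 and RT3.

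Isg15 encodes the ubiquitin-like protein that is attached to other proteins after interferon, and Usp18 removes it and dampens the type I receptor. Usp18 was at 3.60 CPM in NT, 8.73 in RT1, 12.2 in RT2 and 11.5 in RT3, with a mean log2 ratio of 1.57 ± 0.26. Isg15 was at 21.5 CPM in NT, 29.8 in RT1, 49.0 in RT2 and 38.2 in RT3, with a mean log2 ratio of 0.83 ± 0.36. Both genes were thus above NT in all 3 tumors, and only Usp18 passed the rule. Herc6, the mouse ligase of ISG15, was at 15.7 CPM in NT and between 15.2 and 18.6 in RT, on both sides of NT.

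Among the 10 antiviral effectors, 9 lay above NT in every RT library and 1 passed the rule. Ifi44 was the called gene, at 6.18 CPM in NT, 14.9 in RT1, 30.2 in RT2 and 19.4 in RT3. Rsad2, which encodes viperin, was at 35.5 CPM in NT, 55.8 in RT1, 142 in RT2 and 98.0 in RT3. Its mean log2 ratio of 1.37 ± 0.68 covered a range from 0.65 in RT1 to 2.00 in RT2. Ifi27l2a was at 3.54 CPM in NT, 7.05 in RT1, 27.0 in RT2 and 16.2 in RT3, so that RT2 and RT3 were well above the control and RT1 was at a log2 ratio of 0.99, just outside the rule. Xaf1, an antagonist of an apoptosis inhibitor, had a mean log2 ratio of 1.01 ± 0.52, and Cmpk2, the nucleotide kinase encoded beside Rsad2, had 0.83 ± 0.37. Rtp4, Slfn5, Phf11b and Isg20 had mean log2 ratios of 0.79, 0.62, 0.51 and 0.27, and each was above NT in all RT libraries. Ifi35 was on both sides of NT, with a mean log2 ratio of -0.01 ± 0.32.

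Dhx58, a regulator of RNA sensing also known as LGP2, was above NT in every RT library at a mean log2 ratio of 1.14 ± 0.32, and Parp14, an ADP-ribosyltransferase, was above at 0.32 ± 0.43. The DNA-binding HIN-200 gene Ifi204 had a mean log2 ratio of 0.25, above NT in all RT libraries, and Ifi205 was on both sides at 0.02. Ifitm3, which blocks membrane fusion of viruses, was at 1155 CPM in NT, 1295 in RT1, 1327 in RT2 and 1529 in RT3, a mean log2 ratio of 0.26 ± 0.13. Bst2, or tetherin, was on both sides of NT, with a mean log2 ratio of -0.30 ± 0.43.

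The transcription factors of the list did not follow the IFIT genes. Irf1 was at 805 CPM in NT, 462 in RT1, 617 in RT2 and 626 in RT3, and it was the only one of the 37 genes below NT in every RT library in tumor cells, with a mean log2 ratio of -0.52 ± 0.25. Stat2 was at 27.8 CPM in NT, 19.2 in RT1, 38.6 in RT2 and 28.9 in RT3, so that the control lay among the irradiated tumors. Irf9 was likewise on both sides of NT, with a mean log2 ratio of -0.13 ± 0.30.

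**Figure D1:**
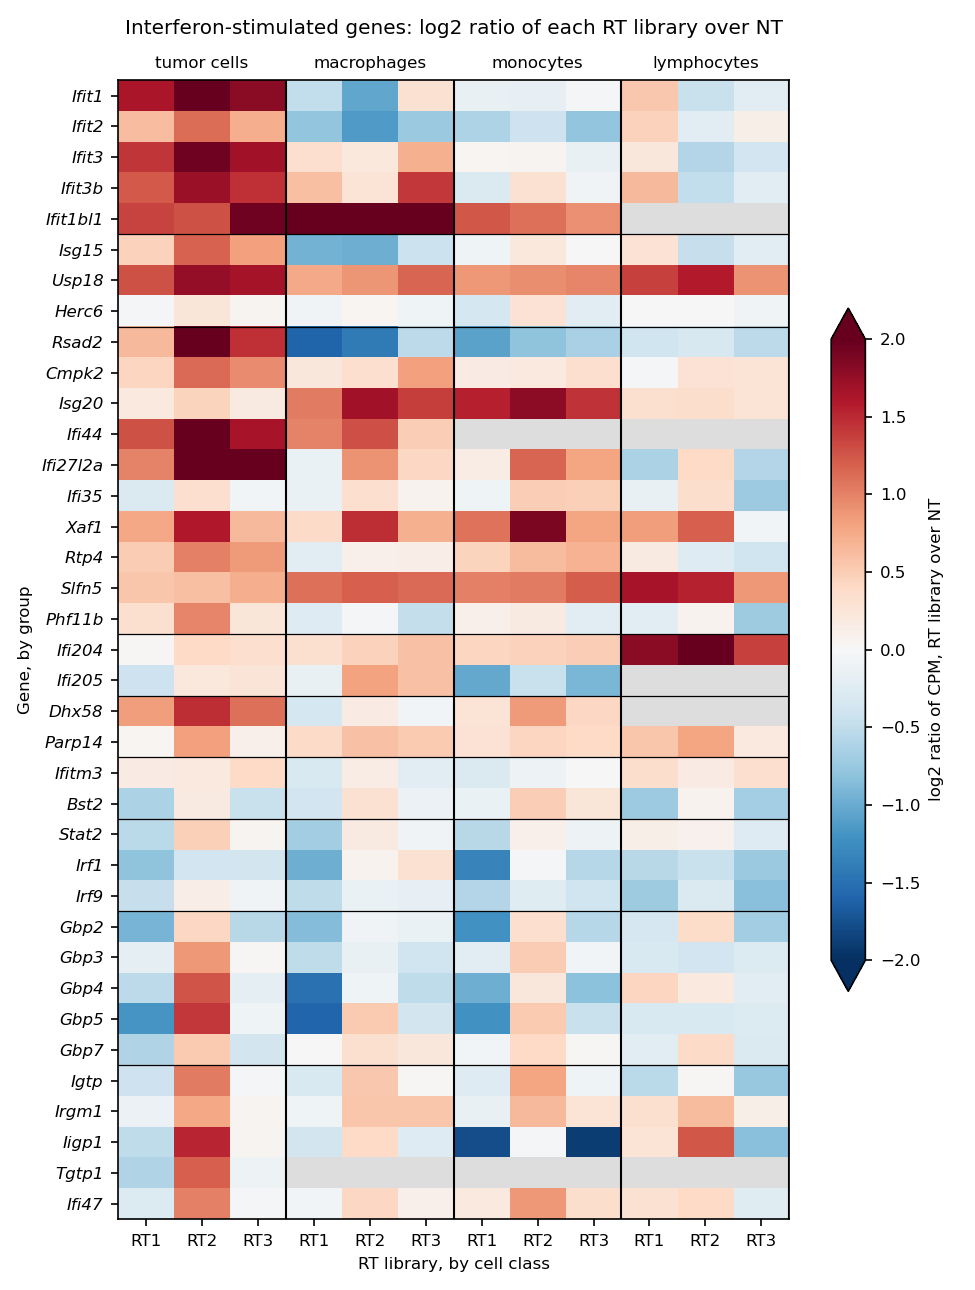
Heat map of the log2 ratio of CPM, each RT library over NT (color, from -2 to 2), for the 37 genes (rows, separated by gene group) in tumor cells, macrophages, monocytes and lymphocytes (columns, 3 RT libraries each). Gray marks genes under the filter. In tumor cells the IFIT rows are red in all 3 columns, whereas the GTPase rows at the bottom are red in RT2 and pale or blue in RT1 and RT3.

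The 10 interferon-inducible GTPases differed in direction between the 3 irradiated tumors. In tumor cells all 10 were above NT in RT2, none was above NT in RT1, and 3 were above NT in RT3. Their median log2 ratio was -0.52 in RT1, 1.03 in RT2 and -0.05 in RT3. None was called, and none had all RT libraries on 1 side of NT. Gbp2 was at 180 CPM in NT, 94.2 in RT1, 240 in RT2 and 122 in RT3. Iigp1 was at 34.7 CPM in NT, 24.4 in RT1, 99.5 in RT2 and 35.9 in RT3. Gbp5 had the widest spread of the group, with log2 ratios of -1.19 in RT1, 1.41 in RT2 and -0.08 in RT3. The same order of the tumors was seen for Gbp4 (-0.52, 1.26 and -0.20), Igtp (-0.42, 1.04 and -0.02), Ifi47 (-0.28, 1.01 and -0.02), Tgtp1 (-0.61, 1.19 and -0.10), Irgm1 (-0.12, 0.78 and 0.06) and Gbp3 (-0.18, 0.87 and 0.02). For Gbp7, at -0.60, 0.52 and -0.36, RT1 was also the lowest and RT2 the highest. Tgtp1 can share reads with its neighboring copy Tgtp2, and the guanylate-binding proteins can share reads among themselves. Tumor cells fell into 8 clusters whose shares differed between libraries, and cluster 1, which had the highest summed GTPase level in NT, held 1247 of 8128 cells in NT and 2625 of 8729 in RT2. The summed level of the GTPases was highest in RT2 in 7 of the 8 clusters. In the other, cluster 10, it was 548 CPM in NT, 418 in RT1, 547 in RT2 and 629 in RT3.

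The 18 IFIT, ISG15 and antiviral genes showed a smaller spread around a higher level. Their median log2 ratio was 0.64 in RT1, 1.23 in RT2 and 0.89 in RT3, and 16 of the 18 were above NT in every RT library. The SD of the log2 ratio over the 3 RT libraries had a median of 0.34 over these 18 genes. This median was 0.72 over the 10 GTPases and 0.19 over all genes tested. RT2 was thus the highest of the irradiated tumors for both groups, and the control fell below all of them for the first group and between them for the second. Since the table of RT2 differed in its mitochondrial range, the medians were recomputed from cells with at most 10% mitochondrial UMIs in every library. They were then -0.49, 1.06 and -0.04 for the GTPases and 0.65, 1.22 and 0.91 for the other group. The summed level of the IFIT, ISG15 and antiviral genes was above NT in every RT library in each tumor cluster except cluster 10. In cluster 10 it was 698 CPM in NT, 698 in RT1, 683 in RT2 and 1184 in RT3. Cluster 1, which held a larger share of the cells in RT2 than in NT, was at 402 CPM in NT. The part of the cluster shares in the medians was not tested.

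**Figure D2:**
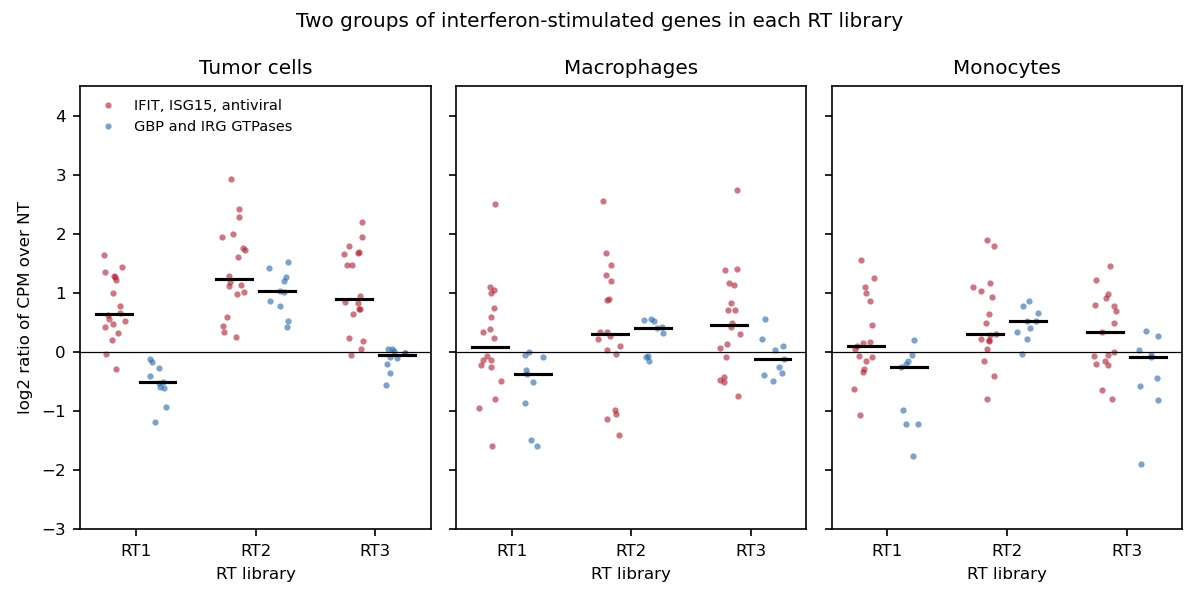
log2 ratio of CPM over NT (vertical axis) in each RT library (horizontal axis) for the IFIT, ISG15 and antiviral genes (red) and the guanylate-binding proteins and immunity-related GTPases (blue), 1 point per gene tested, with black bars for medians. In tumor cells the red medians are above 0 in all 3 libraries (0.64, 1.23 and 0.89) and the blue medians are at -0.52, 1.03 and -0.05.

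Markers of other cells differed between NT and RT within the tumor cell class. The 10 macrophage markers, of which all 10 had UMIs in every library, summed to 10.002 CPM in NT, 57.0 in RT1, 65.7 in RT2 and 32.4 in RT3, with C1qb the most abundant, and the 8 monocyte markers led by Vcan summed to 126, 225, 236 and 208 CPM. The 8 fibroblast markers led by Col3a1 summed to 964 CPM in NT, 1847 in RT1, 1447 in RT2 and 1456 in RT3. The 8 neutrophil markers led by Mmp9, of which Retnlg was at 0 in some library, summed to 12.2, 39.8, 39.2 and 26.2 CPM. The part of the fibroblast and neutrophil markers in the result was not tested. In the 4854, 3759, 2507 and 4580 tumor cells of NT, RT1, RT2 and RT3 that held no UMI of any macrophage or monocyte marker, Ifit1, Ifit3, Ifit3b, Usp18 and Ifi44 were again called higher, with mean log2 ratios of 2.06, 1.98, 1.78, 1.75 and 1.82. The share of all genes called in these cells is not given here, so the ratios are read and the number of calls is not. Ifit1bl1 was under the filter in these cells. The median of the GTPases in these cells was -0.43 in RT1, 0.86 in RT2 and 0.01 in RT3.

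In macrophages, 3 of 36 genes tested were called higher in RT, Ifit1bl1, Isg20 and Slfn5, and none was called lower, where 2.68% of all 9178 genes tested were called higher and 2.94% lower. The median log2 ratio of the genes was 0.05, beside -0.03 for all genes tested, and it was 0.20 without RT1. Ifit1bl1 was at 5.30 CPM in NT, 30.1 in RT1, 30.9 in RT2 and 35.3 in RT3, a mean log2 ratio of 2.60 ± 0.12 that rested on 14 UMIs in NT. Slfn5, a member of the Schlafen family, was at 65.1 CPM in NT, 140 in RT1, 149 in RT2 and 142 in RT3, a mean log2 ratio of 1.14 ± 0.05. Isg20, an exonuclease, was at 11.7 CPM in NT, 24.1 in RT1, 37.6 in RT2 and 30.6 in RT3, and its call was lost with CPM + 1 and at Leiden resolution 1.2. The 3 irradiated tumors were above the control for each of these genes, and Isg20 varied most among them.

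Several of the antiviral genes that were above NT in tumor cells were below NT in macrophages. Rsad2 was at 1394 CPM in NT, 460 in RT1, 523 in RT2 and 973 in RT3, a mean log2 ratio of -1.18 ± 0.58. Isg15 was at 285 CPM in NT, 148 in RT1, 144 in RT2 and 212 in RT3, a mean log2 ratio of -0.79 ± 0.31. Ifit2 was at 189 CPM in NT, 109 in RT1, 85.9 in RT2 and 113 in RT3, a mean log2 ratio of -0.89 ± 0.22. The control exceeded every irradiated tumor for each of the 3 genes, and none passed the rule. Phf11b, Irf9, Gbp2, Gbp3 and Gbp4 were also below NT in every RT library, with mean log2 ratios between -0.69 and -0.25. Of all genes tested in macrophages, 32% were above NT in every RT library and 35% were below, and of the 36 genes 11 were above and 8 were below.

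Other genes of the list were above NT in macrophages as well as in tumor cells. Usp18 was at 23.9 CPM in NT, 40.1 in RT1, 43.9 in RT2 and 53.4 in RT3, a mean log2 ratio of 0.93 ± 0.21. Xaf1 had a mean log2 ratio of 0.86 ± 0.56, Ifi44 had 0.93 ± 0.41 on 27 UMIs in NT, and Ifit3, Ifit3b, Cmpk2, Parp14 and Ifi204 had values between 0.42 and 0.76. Ifit1 was at 323 CPM in NT, 229 in RT1, 156 in RT2 and 397 in RT3, so the control lay within the range of RT. Stat2, Irf1, Ifitm3 and Bst2 were on both sides of NT too, with mean log2 ratios of -0.19, -0.20, -0.12 and -0.06. The same held for Herc6, Ifi27l2a, Ifi35, Rtp4, Ifi205 and Dhx58, with values between -0.08 and 0.42. Among the 9 GTPases tested, none was above NT in RT1, 6 were above in RT2 and 4 were above in RT3, with medians of -0.37, 0.41 and -0.13. Tgtp1 was under the filter.

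**Figure D3:**
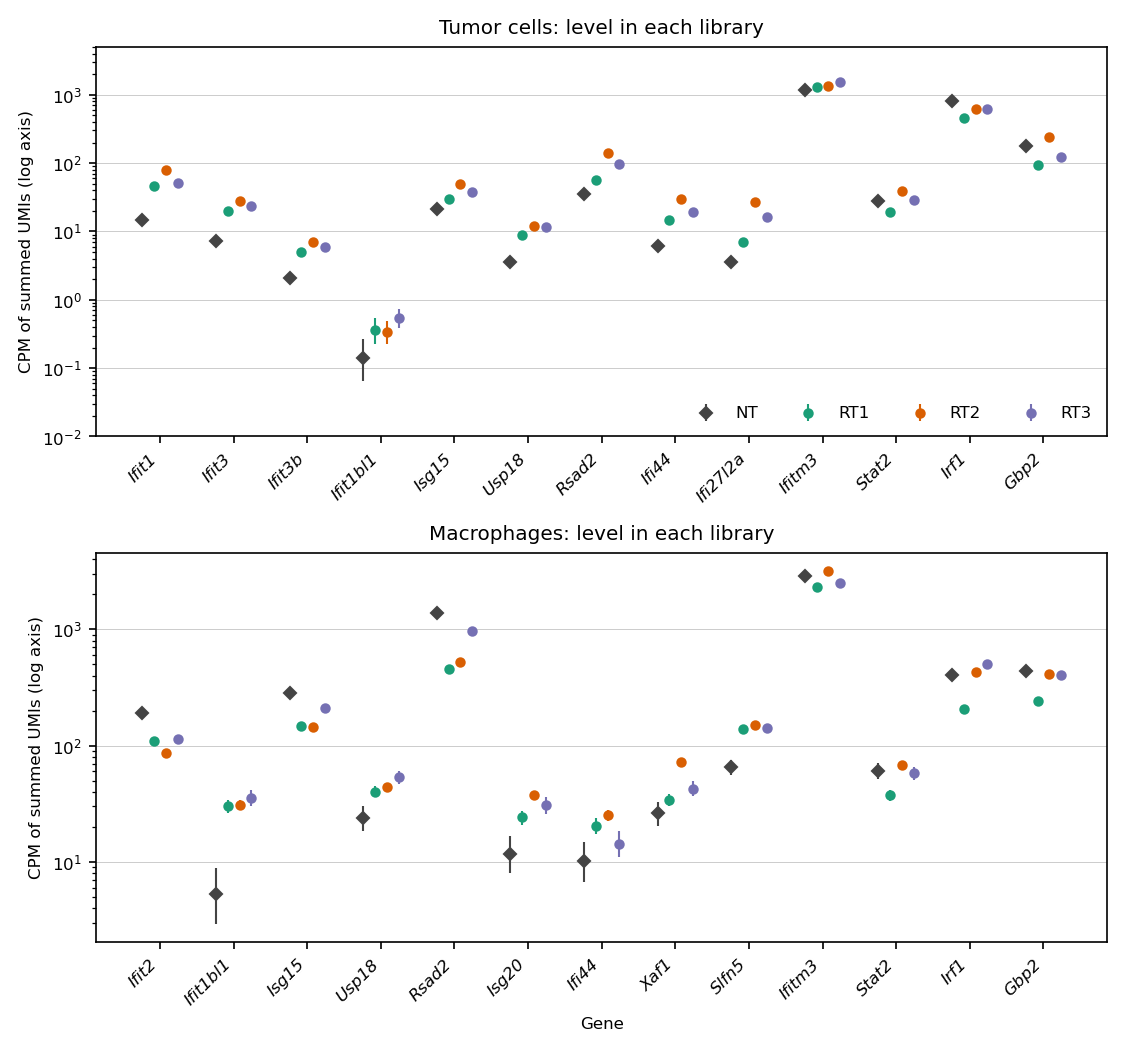
Level in each library (CPM of summed UMIs, log axis) of the genes named by rule in tumor cells (top) and macrophages (bottom), with 95% Poisson intervals that cover counting error only. NT (black diamonds) lies below RT1, RT2 and RT3 (circles) for Ifit1, Ifit3 and Usp18 in tumor cells and above them for Rsad2, Isg15 and Ifit2 in macrophages.

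Within the macrophage class the same cluster held most cells in every library, with 420 of 732 in NT, 1811 of 2598 in RT1, 1770 of 2552 in RT2 and 1044 of 1534 in RT3. Over the class, the 18 IFIT, ISG15 and antiviral genes had a median log2 ratio of 0.08 in RT1, 0.30 in RT2 and 0.45 in RT3, with 9, 13 and 13 of them above NT. Their summed level is carried by few genes, and Rsad2 alone was at 1394 CPM in NT. In the largest cluster the summed level of the IFIT, ISG15 and antiviral genes was 3339 CPM in NT, 1813 in RT1, 2008 in RT2 and 2803 in RT3. The cluster of 114, 130, 232 and 183 cells had 1914 CPM in NT, 2112 in RT1, 2566 in RT2 and 2982 in RT3, with NT below every RT library. The cluster of 135, 602, 487 and 287 cells had 2709, 1904, 2520 and 2803 CPM, on both sides of NT, and the smallest had 2213, 2130, 1242 and 1289 CPM, with NT above every RT library. The 8 monocyte markers summed to 1864 CPM in the macrophages of NT, 1370 in RT1, 1591 in RT2 and 2453 in RT3, and the 10 macrophage markers to 9818, 16200, 17478 and 14378 CPM. The 8 neutrophil markers led by Mmp9, of which G0s2 and Ly6g were at 0 in some library, summed to 90.9 CPM in NT, 361 in RT1, 536 in RT2 and 174 in RT3 in macrophages, and Isg20 was at 26.0 CPM in macrophages and 321.5 CPM in neutrophils as a mean of the 4 libraries. The 8 fibroblast markers led by Col3a1 summed to 30.3, 85.8, 79.7 and 108 CPM. The part of these differences in the results was not tested.

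In monocytes, 2 of 35 genes tested were called higher in RT, Isg20 and Slfn5, and none was called lower, where 3.88% of all 6365 genes tested were called higher and 0.958% lower. All genes tested had a median log2 ratio of 0.12 in this class and the 35 genes had 0.08, so that the list lay near the shift of the whole class. Of the 35 genes 12 were above NT in every RT library and 8 below, where 42.7% and 23.7% of all genes tested were. Isg20 was at 36.6 CPM in NT, 107 in RT1, 126 in RT2 and 100 in RT3. Slfn5 was at 132 CPM in NT, 265 in RT1, 270 in RT2 and 306 in RT3, with RT1 just inside the rule, and its call was lost when the ratios were centered on the class median. Usp18 and Xaf1 had mean log2 ratios of 0.93 ± 0.06 and 1.25 ± 0.57. Rsad2 was at 1291 CPM in NT, 612 in RT1, 741 in RT2 and 825 in RT3, again with the control above every irradiated tumor, and Ifit2, Ifit1, Ifitm3, Ifi205, Irf1, Irf9 and Iigp1 were below NT in every RT library as well. Isg15 differed little between the libraries, at 230 CPM in NT, 218 in RT1, 268 in RT2 and 230 in RT3. Iigp1 was at 124 CPM in NT, 36.3 in RT1, 120 in RT2 and 33.1 in RT3, so that RT2 was near the control and the other tumors were far below it. Of the 9 GTPases tested, 1 was above NT in RT1, 8 in RT2 and 3 in RT3. The 8 neutrophil markers led by Mmp9, of which S100a9, Retnlg and Ly6g were at 0 in some library, summed to 37.8 CPM in NT, 254 in RT1, 250 in RT2 and 125 in RT3 in monocytes. The 10 macrophage markers led by Cd68 summed to 2594, 4284, 3968 and 2828 CPM. The 8 fibroblast markers led by Col3a1 summed to 53.1 CPM in NT, 131 in RT1, 90.5 in RT2 and 179 in RT3. The part of these lists in the result was not tested. In monocytes the median of the 35 genes was 0.21 without RT1.

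In lymphocytes, which numbered 371, 354, 593 and 329 cells in NT, RT1, RT2 and RT3, 1 of 32 genes tested was called higher and none lower, where 1.94% of 7079 genes were called higher and 0.805% lower. The called gene was Ifi204, at 7.62 CPM in NT, 26.5 in RT1, 34.5 in RT2 and 19.6 in RT3, and it rested on 6 UMIs in NT. It passed the filter of 13.3 CPM through RT alone, as did Slfn5, so nothing is read from this call. No gene was called in lymphocytes with a filter of 30 UMIs or without the highest doublet scores. The 10 macrophage markers in this class summed to 140 CPM in NT, 558 in RT1, 508 in RT2 and 230 in RT3. In the same order the 8 neutrophil markers summed to 5.08, 138, 70.5 and 13.9 CPM. The 8 fibroblast markers summed to 113, 309, 223 and 205 CPM. The 9 dendritic markers (340, 179, 129 and 189 CPM) and the B cell markers (119, 62.3, 30.9 and 39.3 CPM) were lower in RT. The part of these lists in the result was not tested. Usp18 was at 21.6 CPM in NT, 55.7 in RT1, 64.8 in RT2 and 40.4 in RT3, and Slfn5 had a mean log2 ratio of 1.35 ± 0.42 on 7 UMIs in NT. Ifit1 was at 476 CPM in NT, 690 in RT1, 351 in RT2 and 407 in RT3, on both sides of the control. The median log2 ratio of the 32 genes was -0.03, beside -0.11 for all genes tested in lymphocytes. At Leiden resolution 1.2 a lymphocyte cluster with Cd8a and Cd3e among its top genes held 258, 158, 358 and 179 cells. The other lymphocyte cluster held 115, 196, 236 and 150, and the part of this difference in the values of the class was not tested.

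The remaining classes were small in NT, with 70 dendritic cells, 32 endothelial cells, 18 neutrophils and 17 fibroblasts, and few of the genes could be tested in them. In dendritic cells 2 of 21 were called higher, Ifit3 and Slfn5, and none lower, where 2.7% and 1.37% of all genes tested were. Ifit3 there was at 47.8 CPM in NT, 117 in RT1, 174 in RT2 and 166 in RT3, and its call was lost without integration. It rested on 8 UMIs in NT and passed the filter of 59.8 CPM through RT alone, so nothing is read from its call. The 8 monocyte markers led by Plac8 in dendritic cells summed to 562 CPM in NT, 1676 in RT1, 1674 in RT2 and 1607 in RT3, and the 9 dendritic markers led by Ccr7 to 5795, 3591, 3520 and 3840 CPM. The 10 macrophage markers led by Cd68 summed to 413, 1090, 689 and 766 CPM there. The 8 fibroblast markers led by Col3a1 summed to 17.9, 139, 89.5 and 302 CPM, and 1 of the 8 had UMIs in every library. The part of these lists was not tested. In endothelial cells Slfn5 was called higher and Bst2 lower among 23 genes, where 2.18% of all genes tested were called in each direction. Bst2 there was at 794 CPM in NT, 235 in RT1, 356 in RT2 and 363 in RT3. The 10 macrophage markers led by Apoe in endothelial cells summed to 17.7 CPM in NT, 74.0 in RT1, 620 in RT2 and 94.6 in RT3, with 9 of the 10 at 0 in some library. The 8 tumor markers led by Ccnd1 summed to 441, 925, 1072 and 1009 CPM there, and the part of both lists was not tested. In fibroblasts Ifit3 and Ifi27l2a were called higher and Gbp4 and Iigp1 lower among 17 genes, where 7.7% and 7.63% of all genes tested were, and the NT values of Ifit3 and Ifi27l2a there were 6 and 3 UMIs. Ifit3 and Ifi27l2a passed the filter of 109 CPM through RT alone and Gbp4 through NT alone, so nothing is read from these 3 calls. The call of Iigp1 rests on the same few control cells. Without the highest doublet scores 5 fibroblasts were left in NT, and without integration no cluster was named as fibroblasts. The 10 macrophage markers in fibroblasts summed to 21.7 CPM in NT, 238 in RT1, 321 in RT2 and 474 in RT3, with 9 of the 10 at 0 in some library, and their part in the result was not tested. In neutrophils 4 genes could be tested and none was called, where 4.3% of all genes tested were called higher and 5.3% lower. Slfn5 was above NT in every RT library in each of the 6 classes other than lymphocytes in which it could be tested. These classes share the same NT library, and the share of all genes with this pattern is not given here. In tumor cells Slfn5 was at 2.40 CPM as a mean of the 4 libraries, against 124 in macrophages. The part of macrophage RNA in its tumor cell values was not tested. Over all kept cells, with no division by class, 8 of the 37 genes were called higher, where 4.99% of all genes tested were, and 0.301% were called lower, but the share of tumor cells was 81.5% in NT against 62.1%, 58.2% and 70.7% in the irradiated tumors.

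Across the 8 classes, the level of a gene was read as the mean CPM of the 4 libraries. This is a share of the UMIs of a class and not a count per cell, and tumor cells held more UMIs per cell than macrophages (in NT a median of 6718 against 2943). Tumor cells had the lowest level of all classes for 23 of the 37 genes and the highest for none. Endothelial cells were highest for 13 of the genes, among them Ifit1, Isg15, Bst2, Ifitm3 and all 5 guanylate-binding proteins, and monocytes were highest for 7, among them Rsad2, Ifi27l2a and Dhx58. Neutrophils were highest for 6, including Isg20, dendritic cells for 6, including Ifit2, Stat2 and Irf9, and fibroblasts for 5, including Slfn5, Igtp and Irf1. Macrophages and lymphocytes were highest for none. Ranks of the small classes rest on few NT cells, as for Ifit3, which was highest in neutrophils with an NT level of 581 CPM from 11 UMIs. Lymphocytes were lowest for 9 genes, including Ifitm3, Gbp2 and Irf1.

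Ifit1 was at 535 ± 199 CPM (SD, n = 4 libraries) in endothelial cells, 481 ± 148 in lymphocytes, 423 ± 95.5 in neutrophils, 307 ± 49.0 in dendritic cells, 301 ± 124 in fibroblasts, 276 ± 106 in macrophages, 251 ± 13.5 in monocytes and 47.8 ± 26.3 in tumor cells. Neighbors in this order differed by less than the larger of their SDs, except that neutrophils were above dendritic cells and monocytes above tumor cells by more than it. Slfn5 was at 2.40 ± 0.48 CPM in tumor cells and 19.7 ± 8.79 in lymphocytes, and between 124 and 277 CPM in the other classes. Iigp1 was at 585 ± 391 CPM in fibroblasts, 557 ± 132 in endothelial cells, 208 ± 52.3 in macrophages and 48.6 ± 34.3 in tumor cells. Irf1 spread less over the classes, from 321 ± 73.4 CPM in lymphocytes to 924 ± 171 in fibroblasts, with tumor cells at 628 ± 140.

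**Figure D4:**
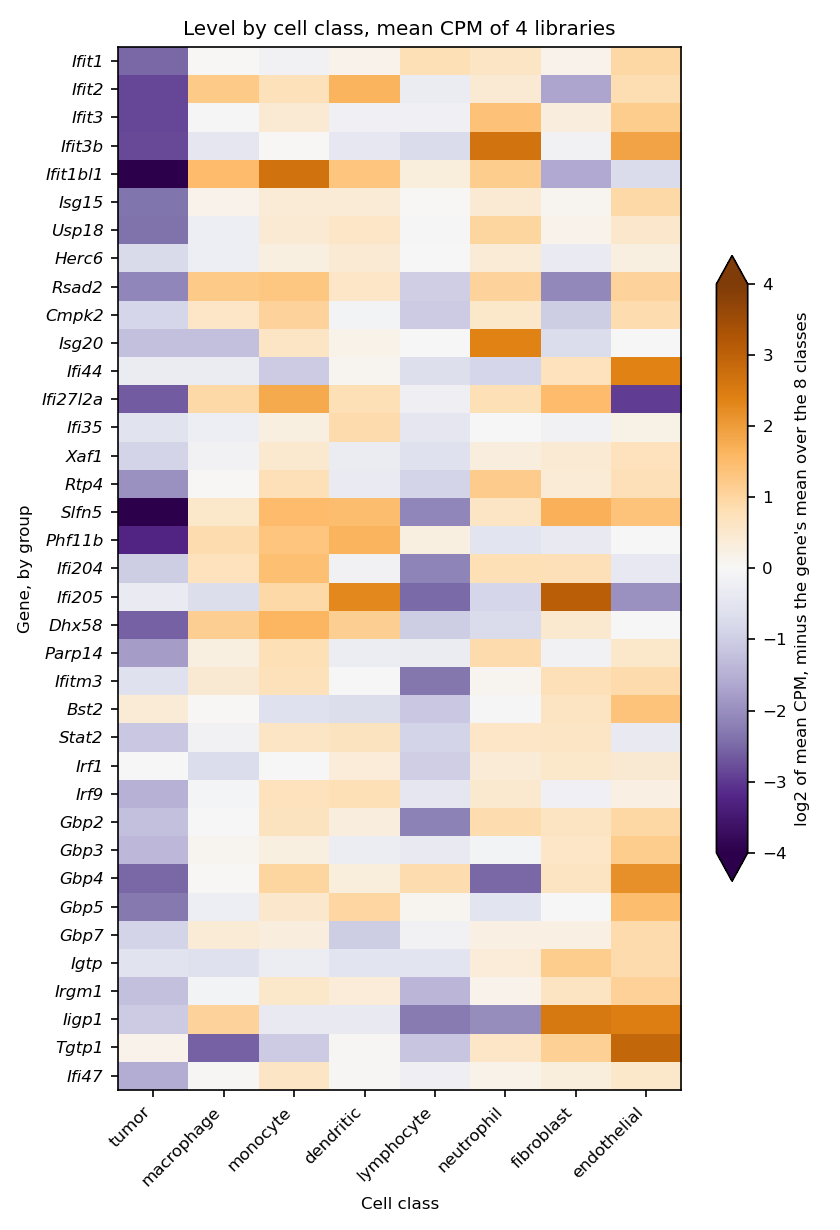
log2 of the mean CPM over 4 libraries, minus the mean of the same gene over the 8 classes (color, from -4 to 4), for the 37 genes (rows) in each cell class (columns). The tumor column is the lowest for 23 genes and the endothelial column the highest for 13, and colors are comparable only along a row.

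Within tumor cells, the UMIs of most of these genes gathered in the same cells more than those of other genes. All cells were thinned to 2000 UMIs, which left 7088 tumor cells in NT, 7657 in RT1, 7026 in RT2 and 8685 in RT3, and for each gene the 10% of cells with the most UMIs of the other genes of the list were taken. These cells held a median of 39.3% of a gene's UMIs in NT, 46.8% in RT1, 40.5% in RT2 and 48.2% in RT3. For all genes outside the list with at least 100 UMIs, the 10% of cells highest in the listed genes held a median of 9.33%, 9.25%, 9.30% and 9.17%. More than 50% of the UMIs of a median gene thus lay outside these cells. The gathering was present in the control tumors as well as in the irradiated ones. Ifit3 gathered most among the genes measured in every library, with 86.8% of its UMIs in NT, 85.2% in RT1, 77.2% in RT2 and 86.1% in RT3 (Ifit3 can share reads with Ifit3b), and Ifit1 had 70.0%, 73.3%, 62.4% and 74.7%. Among the same genes, measured in every library, Ifitm3 gathered least, with between 13.4% and 15.6%. Cells were ranked by summed UMIs, to which Ifitm3 and Irf1 gave the most (16833 and 13067 UMIs in the thinned tumor cells of NT). The ranking for Ifitm3 leaves Ifitm3 out, so its share rests on another ranking than those of the other genes. The same cells held 12.5%, 10.9%, 9.33% and 11.4% of the UMIs of the macrophage markers in NT, RT1, RT2 and RT3. In tumor cells with no UMI of a macrophage or monocyte marker, the median share was 38.9% in NT, 46.4% in RT1, 39.8% in RT2 and 50.4% in RT3.

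The share of tumor cells with a UMI of Ifit1 was 3.74% in NT, 7.70% in RT1, 14.0% in RT2 and 9.10% in RT3, and after thinning it was 2.06%, 5.12%, 7.98% and 5.43%. For Rsad2 the thinned share was 4.37% in NT, 5.63% in RT1, 11.8% in RT2 and 7.53% in RT3. For Irf1 it was 64.4%, 48.9%, 56.6% and 57.1%. For Iigp1 it was 5.01%, 4.17%, 13.9% and 5.46%, so that RT2 alone stood clearly above the control. In thinned macrophages the share with a UMI of Rsad2 was 41.6% in NT, 22.5% in RT1, 27.0% in RT2 and 32.4% in RT3. Thinned macrophages numbered 498, 1625, 1958 and 894.

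In tumor cells the cells highest in 1 group of genes were also read for the other group. After thinning, 74.4% of the tumor cells of NT held no UMI of the IFIT, ISG15 and antiviral genes, and 62.7% held none of the GTPases. Cells with equal counts were ordered at random. The shares to be had if the same cells held both groups were not computed, so how far the groups overlap was not tested. The 10% of cells highest in GTPases held a median of 50.9% of a GTPase's UMIs in NT, 51.9% in RT1, 49.9% in RT2 and 55.0% in RT3, and the 10% of cells highest in IFIT, ISG15 and antiviral genes held 26.6%, 39.3%, 28.4% and 37.8% of them. For the IFIT, ISG15 and antiviral genes the cells highest in their own group held 39.6%, 54.1%, 50.3% and 56.0%, and the cells highest in GTPases held 35.6%, 42.4%, 32.0% and 45.2%, so that the difference was small in NT. Outside all interferon lists, Cd274, which encodes the checkpoint ligand PD-L1, had the highest share in the cells highest in the 37 genes when genes were ordered by their lowest share over the 4 libraries, with 50% of its UMIs in NT, 43.9% in RT1, 45.8% in RT2 and 51.7% in RT3, over 318, 205, 461 and 317 UMIs. Tap1, the peptide transporter of class I antigen presentation, had 22.3%, 22.4%, 20.8% and 25.0%, and Nos2, the inducible nitric oxide synthase, had 37.6%, 46.2%, 35.3% and 20.5%. These 3 genes were chosen after their values were seen. In macrophages the median share of a listed gene in the top cells was 19.4% in NT, 39.2% in RT1, 30.9% in RT2 and 31.4% in RT3, over 24, 34, 36 and 31 genes with enough UMIs, so that the libraries were not compared on equal gene sets.

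**Figure D5:**
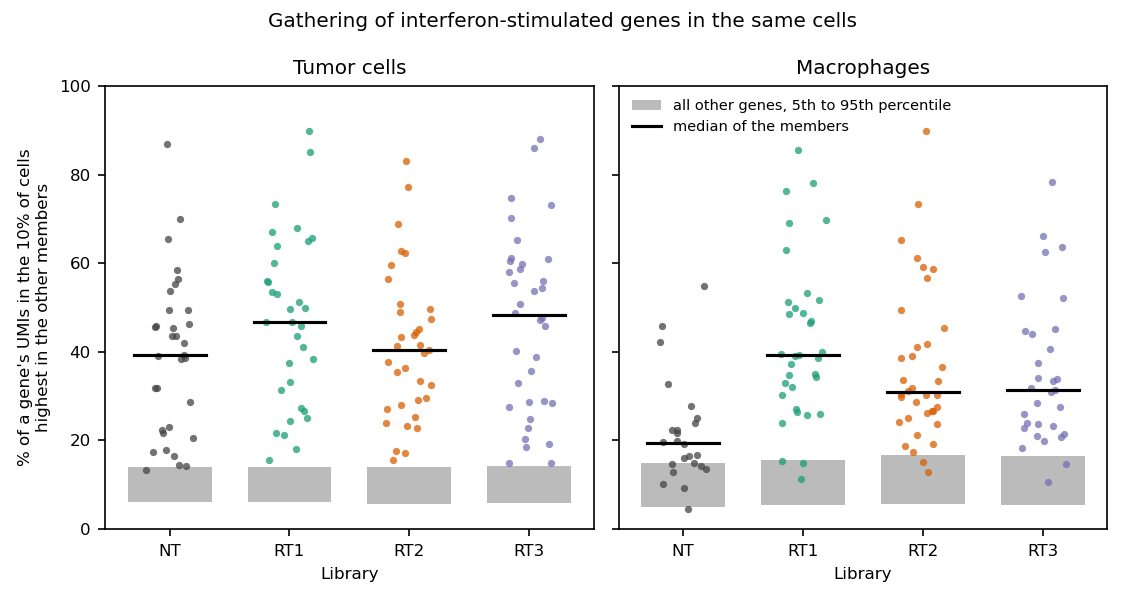
Share of each gene's UMIs (vertical axis, %) held by the 10% of cells highest in the other listed genes, in cells thinned to 2000 UMIs, by library, for tumor cells (left) and macrophages (right), 1 point per gene with black bars for medians and gray boxes for the 5th to 95th percentile of all other genes. In tumor cells the medians lie between 39.3% and 48.2%, above the gray boxes in all 4 libraries.

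The wider pathway was described by lists of its other genes. Of 6 interferon ligands matched, Ifnb1 and Ifna2 could be tested in macrophages, and both were called lower in RT, where 2.94% of all genes tested in that class were. Ifnb1, interferon beta, was at 239 CPM in NT, 61.0 in RT1, 9.81 in RT2 and 93.9 in RT3, with log2 ratios of -1.97, -4.61 and -1.35. It was found in 123 of 732 macrophages in NT (16.8%, exact binomial interval 14.2% to 19.7%), 155 of 2598 in RT1 (5.97%, 5.09% to 6.95%), 45 of 2552 in RT2 (1.76%, 1.29% to 2.35%) and 97 of 1534 in RT3 (6.32%, 5.16% to 7.66%), whereas in tumor cells the share was between 0.216% and 0.390%. The 10 macrophages with the most UMIs held 37.1% of all Ifnb1 UMIs of the class in NT and 55.0% in RT2. Ifna2 was at 27.6 CPM in NT, 4.41 in RT1, 0.684 in RT2 and 3.80 in RT3. Its RT mean lay below the filter of 3.79 CPM, so it passed through NT alone and nothing is read from its call. In monocytes Ifnb1 was at 79.1 CPM in NT, 16.1 in RT1, 8.03 in RT2 and 14.0 in RT3 and was called lower too, but the NT value rested on 67 UMIs in 16 of 539 cells, and 10 of these cells held 91.0% of them. Interferon gamma (Ifng) was tested in lymphocytes alone, at 319 CPM in NT, 550 in RT1, 474 in RT2 and 261 in RT3.

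None of the 8 receptors and kinases tested was called in tumor cells or in macrophages. Of all genes tested, 3.75% were called higher and 0.205% lower in tumor cells, and 2.68% and 2.94% in macrophages. Ifngr1, a chain of the interferon gamma receptor, was at 24.9 CPM in NT, 36.8 in RT1, 39.2 in RT2 and 26.2 in RT3 in tumor cells, and at 75.4, 147, 146 and 116 CPM in macrophages. Ifnar1 was at 22.8 CPM in NT and between 17.7 and 20.4 in RT in tumor cells, and Jak2 had a mean log2 ratio of 0.40 ± 0.06 in macrophages. Of 10 other STAT and IRF factors, none was called in tumor cells. Batf2 there was at 1.72 CPM in NT, 3.37 in RT1, 16.7 in RT2 and 2.51 in RT3, with RT2 far above the rest, and Irf7 was at 2.69, 3.45, 9.44 and 5.59 CPM. In macrophages 1 of the 10 was called lower, where 2.94% of all genes tested were. It was Ciita, the activator of MHC class II genes, at 26.1 CPM in NT, 2.44 in RT1, 10.9 in RT2 and 6.48 in RT3. The B cell marker Ighm was at 43.5 CPM in NT, 5.10 in RT1, 10.9 in RT2 and 7.82 in RT3 in macrophages, and its part in the result was not tested. Irf7 there was at 38.2, 59.4, 123 and 82.0 CPM.

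Among the sensors and adaptors, none of 10 was called in tumor cells and none of 11 in macrophages. Of all genes tested, 3.75% were called higher and 0.205% lower in tumor cells, and 2.68% and 2.94% in macrophages. An absence of calls in lists this short is thus not read as a result. Zbp1, a sensor of left-handed nucleic acids, was at 6.95 CPM in NT, 11.9 in RT1, 29.7 in RT2 and 10.8 in RT3 in tumor cells. Mavs, the adaptor of RNA sensing, had a mean log2 ratio of 0.55 ± 0.27 in tumor cells and 1.01 ± 0.34 in macrophages, and Tlr3 had 1.03 ± 0.37 in macrophages. None of the 9 feedback inhibitors was called in either class. Ptpn6 and Socs3 had mean log2 ratios of 0.75 ± 0.19 and -0.35 ± 0.14 in tumor cells, and Trim24 and Ptpn2 had 0.37 ± 0.33 and -0.29 ± 0.24 in macrophages. Of the further GTPases, F830016B08Rik and Gbp10 were highest in RT2 in tumor cells, at 2.19 and 0.452 CPM against 0.235 and 0.0783 in NT, and Gbp10 passed the filter of 0.163 CPM through RT alone. In macrophages 1 of 8 further GTPases tested was called lower, where 2.94% of all genes tested were. This was Gbp2b, at 56.0 CPM in NT, 6.84 in RT1, 13.8 in RT2 and 15.2 in RT3. Irgm2 had a mean log2 ratio of 0.84 ± 0.13 there.

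Of 55 further interferon-induced genes tested in tumor cells, 7 were called higher and none lower, with a median log2 ratio of 0.50, where 3.75% and 0.205% of all genes tested were called. Oasl1, a member of the OAS family, was at 2.39 CPM in NT, 13.2 in RT1, 21.7 in RT2 and 11.1 in RT3, and the HIN-200 gene Ifi207 was at 0.877, 5.57, 6.32 and 4.20 CPM. In macrophages 4 of 50 were called higher and 1 lower, where 2.68% and 2.94% of all genes tested were. Lgals3bp, a secreted binding protein of galectins, was at 119 CPM in NT, 595 in RT1, 514 in RT2 and 472 in RT3, and Ifitm1 was the gene called lower, at 106, 18.6, 34.4 and 35.5 CPM. Of the 3 interferon-induced chemokines tested, 1 was called in tumor cells and none in macrophages. In each class 1 of the 3 was on both sides of NT, and a difference between the classes was not tested. In tumor cells Ccl5 was called higher, at 5.32 CPM in NT, 29.6 in RT1, 27.5 in RT2 and 26.9 in RT3, and Cxcl10 was at 351, 485, 692 and 596 CPM. The 10 macrophage markers summed to 10.002 CPM in NT, 57.0 in RT1, 65.7 in RT2 and 32.4 in RT3 in the tumor cell class. Their part in the tumor cell values of Oasl1, Ifi207, Ccl5 and the other pathway genes was not tested. In macrophages Cxcl10 was at 3656 CPM in NT, 1403 in RT1, 1418 in RT2 and 2690 in RT3, and Cxcl9 was at 1452, 585, 1089 and 1001 CPM, with the control above every irradiated tumor for both.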

How the data were processed

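Single-cell libraries had been prepared from dissociated tumors with the SeekOne MM 3′ kit by the authors, who deposited the values as raw counts of UMIs per gene and cell barcode. The submitters' processing notes name STAR 2.5.1b, Subread 1.6.4, featureCounts and Cell Ranger, and the builds GRCm39 and mm39. Barcodes under 200 genes or over 20% mitochondrial UMIs were removed. The 18596 shared symbols were clustered without 155 interferon genes (2000 variable genes, 30 principal components, Harmony over libraries, Leiden resolution 0.8), and the 19 clusters were named from fixed markers by a scoring that was settled after clusterings of these data had been seen. Doublets were scored but not removed, and an alternative left out the highest scores. UMIs were summed per class and library, and ratios used no test, since NT is 1 library. Poisson and exact binomial intervals (95%) cover counting error only. Values per library were given for the 8 tested genes with the largest mean ratio among those on 1 side of NT, and for Isg15, Irf1, Stat2, Ifitm3 and Gbp2. In small classes the 3 largest were eligible, and 2 genes per pathway list. The genes and lists were chosen with earlier results of these data known. Reads of near-identical genes (Ifit3 and Ifit3b, Ifit1 and Ifit1bl1, Tgtp1 and Tgtp2, the guanylate-binding proteins) may be divided between copies. The calculation of ratios was checked on simulated data. Python 3.11.15, numpy 2.4.6, scipy 1.17.1, pandas 2.3.3, scikit-learn 1.9.0, leidenalg 0.10.2 and matplotlib 3.10.9 were used. Alternatives were other scalings, pseudocounts, filters, clusterings, and leaving out each RT library.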

Additional observations from a re-analysis of the deposited data

Results flagged for a closer look

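For some genes every RT library lay on one side of NT in one class and on the opposite side in another, and these differences between classes were not tested. Between tumor cells and macrophages the difference of the mean log2 ratios was 2.55 for Rsad2, 1.71 for Ifit2, 1.61 for Isg15 and 0.77 for Phf11b, with tumor cells higher in each case. Between tumor cells and monocytes it was 2.21 for Rsad2, 2.07 for Ifit1, 1.43 for Ifit2 and 0.39 for Ifitm3, again with tumor cells higher. Rsad2 also differed between tumor cells and lymphocytes, by 1.78. Ifitm3 differed between monocytes and lymphocytes by -0.42, with monocytes below NT and lymphocytes above it.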

How the results depend on the processing

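No paired analysis was possible because NT is a single library. A log2 ratio of 0.5 in place of 1 gave 13 genes called higher in tumor cells, 5 in monocytes, 3 in lymphocytes, 4 in macrophages and 14 over all kept cells, where 10.1%, 13.8%, 6.63%, 9.56% and 12.5% of all genes tested were called. It gave 2 genes called lower in macrophages (Ifit2 and Rsad2) and 1 in monocytes (Rsad2), where 9.09% and 4.46% were. The 2 genes called higher in monocytes became 1 with median-centered ratios, with CPM + 1, with at most 10% mitochondrial UMIs and without the highest doublet scores, and 4 at Leiden resolution 1.2 and without integration. The 1 gene called in lymphocytes became 2 with median-centered ratios and at most 10% mitochondrial UMIs, and 0 with a filter of 30 UMIs and without the highest doublet scores. The shares of all genes called under these alternatives are not given here, so nothing is read from these moves in monocytes and lymphocytes. Leaving out each RT library in turn gave 6 to 9 genes called higher in tumor cells, 3 to 3 in macrophages, 2 to 2 in monocytes, 1 to 1 in lymphocytes and 8 to 9 over all kept cells, where 3.75% to 4.52%, 2.68% to 2.99%, 3.88% to 4.24%, 1.94% to 2.14% and 4.99% to 5.79% of all genes tested were called higher, with medians of 0.27 to 0.55, 0.05 to 0.20, 0.08 to 0.21, -0.09 to -0.03 and 0.55 to 0.70. The rule needs every RT library left in, so leaving 1 out could undo a call only through the filter. The lower ends of these counts and shares are thus not read as a sign of stability. The upper values in tumor cells came without RT1. No gene was called lower in these classes when an RT library was left out. The cause of these changes was not tested. Of 280 alternative values of named genes that passed the rule, 269 kept the call, and all 630 of those with RT on 1 side of NT kept their sign. Where a value was counted, leaving out an RT library, a log2 ratio of 0.5 and another filter could undo neither a call nor a sign. Only the remaining alternatives put the calls and signs to a check. Alternatives in which a gene fell under the filter or its class held no cells gave no value and were not counted. Calls were lost for Ifit1bl1 in tumor cells with CPM + 1 (0.31) and without the highest doublet scores (1.19), for Ifit3b there with CPM + 1 (1.14) and without integration (0.97), for Isg20 in macrophages with CPM + 1 (1.30) and at Leiden resolution 1.2 (1.32), for Slfn5 in monocytes under 4 alternatives (0.95 to 1.08) and for Ifit3 in dendritic cells without integration (1.51). Ifit1bl1 in tumor cells moved to 2.66 at Leiden resolution 1.2 and 2.81 without integration. The number of GTPases above NT in the tumor cells of RT3 was 3 and became 5 with median-centered ratios and 0 at Leiden resolution 1.2 and without integration, whereas it was 10 in RT2 and 0 in RT1 under each of these. Those clusterings left tumor-like clusters unnamed, so the class held 31850 and 29078 cells in place of 36831. The number of cells limited the small classes, since 17 fibroblasts and 18 neutrophils stood for the control.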
